A study of Mus musculus with 8 samples.

Results

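The nuclear genes of oxidative phosphorylation were followed in mouse embryos from zygotes injected to deplete zona pellucida protein 3 (ZP3) inside the cell. They were the rows of the gene count table whose symbol begins with Nduf, Uqcr, Atp5, Cox4, Cox5, Cox6, Cox7 or Cox8, or is Sdha, Sdhb, Sdhc, Sdhd, Cyc1 or Cycs. No measured value enters this rule, but the genes were chosen with earlier results of these data known. The rule gave 96 genes of 52636 in the table: 39 of complex I, 4 of complex II, 9 of complex III, 18 of complex IV, 17 of complex V (ATP synthase), 1 for cytochrome c (Cycs), and 8 Ndufaf genes, which encode assembly factors of complex I. Cyc1 was counted in complex III, of which it is a subunit. Ndufa4 and Ndufa4l2 stayed with complex I by their symbols, although the NDUFA4 protein is now regarded as a part of complex IV.

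Zygotes conceived in vivo after hormone priming (background B6C3F1 x CD1, wild-type) were injected 15 h post hCG and cultured, and RNA was taken the next day, in the dataset that its title places at 24 h. The 3 Trim-away ZP3 libraries came from zygotes given anti-ZP3 antibody at 1 mg/mL with Oregon Green dextran at 0.02 mg/mL and mCherry-Trim21 mRNA at 0.2 mg/mL. TRIM21 is a ubiquitin ligase that binds antibodies, and in the Trim-away method it carries the antibody and its target protein to the proteasome. The published text describes the loss of ZP3 protein by this method as partial. The 4 Trim21 overexpression libraries came from zygotes given the same mRNA and dextran with antibody buffer but no antibody, and 1 library came from non-manipulated embryos. The published text gives the sizes of the injected groups the other way round in its results, a figure legend and a supplementary table legend. Its methods describe triplicates of both groups. The sample titles, the design text and the column names were followed here. When RNA was taken, the Trim-away ZP3 embryos were arrested as 1-cell embryos (labelled E0.5), whereas the Trim21 overexpression embryos had reached the 2-cell stage. These and the non-manipulated embryos were labelled E1.5. The effect of ZP3 depletion and that of the developmental stage therefore cannot be told apart in this comparison. Each library was made from whole embryos in bulk, so fewer cells contributing a transcript and less transcript per cell also cannot be told apart.

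Library totals were 13228428, 15379933 and 14898960 counts in Trim-away ZP3, 17615416 to 22427747 counts in Trim21 overexpression and 22248022 counts in non-manipulated embryos. Values are CPM, counts scaled to an equal library size of 1000000 reads. Trim21 itself, which includes any reads from the injected mRNA, stood at 2136, 0 and 3.55 CPM in Trim-away ZP3 replicates 1, 2 and 3, at 2423, 2727, 8691 and 962 CPM in the 4 Trim21 overexpression libraries and at 0 CPM in non-manipulated embryos. The libraries labelled Trim-away ZP3 replicates 2 and 3 thus held little or no Trim21 RNA, and the counts below are also given without them. Zp3 mRNA, which the antibody does not target, stood at 28.4, 55.0 and 55.9 CPM in Trim-away ZP3, against 106, 142, 121 and 108 CPM in Trim21 overexpression (log2 fold change -1.36 ± 0.36 SE, edgeR adjusted p = 0.055). Of 10 oocyte marker genes, which check the labelled material, all 10 passed the filter, and 3 were called higher in Trim-away ZP3 (Nlrp5, Bmp15 and Zp2). Over all genes tested, 2.98% were called higher. Zp3, 1 of the 10, lay the other way, and DESeq2 and limma called it lower. They called Ooep higher beside the same 3. In edgeR, Bmp15 kept its call whichever library was left out, Zp2 in 3 of 7 such fits (adjusted p up to 0.053) and Nlrp5 only without Trim21 overexpression replicate 3 (adjusted p up to 0.093). The summed level of the 10 was 2677 to 5811 CPM in Trim-away ZP3 and 1018 to 1486 CPM in Trim21 overexpression. Much of it was Bmp15, at 1590 to 3708 CPM in Trim-away ZP3 and 346 to 632 CPM in Trim21 overexpression. For 7 markers of the 2-cell embryo the sums were 1333 to 1521 CPM in Trim-away ZP3 and 393 to 928 CPM in Trim21 overexpression. Of these, edgeR called 0, 2 were higher at an unadjusted p under 0.05, DESeq2 called 2 higher and limma called 0. Over all genes tested, 8.99% were higher at that unadjusted p and DESeq2 called 7.34% higher. Markers of other cells were lower still: the sums were 6.82 to 56.2 CPM in Trim-away ZP3 and 1.17 to 52.1 CPM in Trim21 overexpression for 10 cumulus or granulosa genes (Fshr, Amh, Foxl2, Ptx3 and Cyp11a1 at 0 in every library). For 7 sperm genes they were at most 4.07 CPM in Trim-away ZP3 and 4.06 CPM in Trim21 overexpression (Tnp1 and Tnp2 at 0), and for 5 blood genes at most 4.13 CPM in Trim-away ZP3 and 6.25 CPM in Trim21 overexpression (Hbb-bt at 0). For 5 oviduct genes the sums were 16.2 to 179 CPM in Trim-away ZP3 and 280 to 360 CPM in Trim21 overexpression, mostly Epcam in every library but Trim-away ZP3 replicate 1, with Krt7, Pax8 and Foxj1 at most 1.70 CPM. The part of stage, of these markers and of depth in the results was not tested.

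Oxidative phosphorylation passes electrons from NADH (complex I) and succinate (complex II) through ubiquinone, complex III and cytochrome c to oxygen at complex IV, and the protons pumped on the way drive ATP synthesis by complex V. Most subunits are encoded in the nucleus and imported, and a small set, always of complexes I, III, IV and V and never of complex II, is encoded in mitochondrial DNA. The egg supplies the early embryo with its mitochondria and with a store of maternal transcripts, which is degraded as the embryo begins its own transcription at the 2-cell stage in the mouse. Early mouse embryos depend on mitochondrial oxidation of pyruvate for energy. Many nuclear genes of the pathway carry sites for NRF1, for GABP (also called NRF-2, a complex of the products of Gabpa and Gabpb1) or for YY1 near their start sites.

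To show the promoter features that part of these genes share, 8 stretches picked for an NRF1 or GABP core are shown before the levels: 6 from genes that were called lower and 2 from genes whose 3 Trim-away ZP3 libraries all exceeded the 4 Trim21 overexpression libraries. Each runs from 100 bases before to 20 bases after the start site in RefSeq (GRCm38.p6), with matches to the NRF1 core (CGCANGCG) or the GABP core (ACCGGAAG), on either strand, in capitals.
Ndufaf1 (chr2:119662815-119662934, minus strand): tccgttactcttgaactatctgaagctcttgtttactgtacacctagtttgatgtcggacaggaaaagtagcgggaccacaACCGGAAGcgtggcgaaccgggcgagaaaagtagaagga
Cycs (chr6:50566550-50566669, minus strand): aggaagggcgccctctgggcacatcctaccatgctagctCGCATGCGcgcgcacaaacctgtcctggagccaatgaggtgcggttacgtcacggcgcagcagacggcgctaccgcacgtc
Ndufa11 (chr17:56717662-56717781, plus strand): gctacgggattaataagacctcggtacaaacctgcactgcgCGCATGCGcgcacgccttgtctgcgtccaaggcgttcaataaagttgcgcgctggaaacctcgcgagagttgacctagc
Ndufb10 (chr17:24724404-24724523, minus strand): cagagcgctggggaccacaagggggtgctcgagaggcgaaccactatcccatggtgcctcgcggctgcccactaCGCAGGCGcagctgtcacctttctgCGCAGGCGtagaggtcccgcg
Uqcr10 (chr11:4704325-4704444, minus strand): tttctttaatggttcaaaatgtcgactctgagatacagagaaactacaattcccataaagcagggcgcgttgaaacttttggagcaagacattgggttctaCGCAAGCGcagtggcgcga
Atp5md (chr19:47090628-47090747, minus strand): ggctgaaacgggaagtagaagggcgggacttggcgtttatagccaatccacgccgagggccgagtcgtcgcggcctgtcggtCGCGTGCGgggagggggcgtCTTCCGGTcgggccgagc
Sdha (chr13:74350221-74350340, minus strand): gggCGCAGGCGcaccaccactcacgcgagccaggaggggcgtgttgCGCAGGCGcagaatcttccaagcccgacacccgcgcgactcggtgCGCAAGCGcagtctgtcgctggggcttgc
Atp5g2 (chr15:102671028-102671147, minus strand): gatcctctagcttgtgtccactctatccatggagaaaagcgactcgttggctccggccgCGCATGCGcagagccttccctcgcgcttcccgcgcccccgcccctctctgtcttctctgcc
In Atp5md the capitals nearer the 3′ end are the GABP core on the opposite strand, and in Ndufaf1 they are the GABP core. The capitals in the other stretches, and the first run in Atp5md, are the NRF1 core. The cores do not overlap each other in these stretches. Cycs and Ndufa11 held the same 8 letters, which read alike on both strands, at -61 and -59 from the start site. Ndufb10 held 2 NRF1 cores and Sdha held 3.

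Of the 96 genes, 78 had a RefSeq promoter of 300 bases (250 before and 50 after the start). The NRF1 core stood in 30 of them (38.5%), against 2492 of all 27025 promoters (9.22%). The GABP core stood in 8 of the 78 (10.3%), against 2.60% of all promoters, and the YY1 core (AANATGGCG) in 11 (14.1%), against 2.76%. Among the 14 called genes with a promoter, the NRF1 core was present in 6 (Cycs, Ndufa11, Ndufb10, Uqcr10, Atp5o and Atp5md), the GABP core in 3 (Ndufaf1, Atp5md and Ndufs8) and the YY1 core in 1 (Atp5j2). In all, 6 of the 14 (Atp5pb, Atp5j2, Cox7a2, Atp5g1, Uqcrfs1 and Cox7c) held neither the NRF1 nor the GABP core. Among the 62 that were tested but not called, the NRF1 core was present in 23 (37.1%), the GABP core in 5 and the YY1 core in 10. As shares of the called and uncalled genes, these were 42.9% and 37.1% for NRF1, 21.4% and 8.06% for GABP, and 7.14% and 16.1% for YY1. Whether these shares differ, and whether the sites bear on the levels, was not tested. A match to these letters describes the window only.

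Most nuclear oxidative phosphorylation genes had lower levels in Trim-away ZP3. After the filter on low counts 92 of the 96 were tested, and 15 of them were called lower and 0 higher (edgeR quasi-likelihood test, Benjamini-Hochberg adjusted p under 0.05 over 13641 genes). Over all genes tested, 3.91% were called lower and 2.98% higher. At an unadjusted p under 0.05, 38 of the 92 were lower (41.3%) and 2 higher (Ndufaf4 and Sdha), against 12.3% lower and 8.99% higher of all genes tested. DESeq2 called 34 lower (37.0%) and 1 higher (Ndufaf4), against 9.98% lower and 7.34% higher of all genes. Limma on log2(RPKM + 0.1) called 31 of 91 lower (34.1%) and 1 higher (Ndufaf4), against 8.12% lower and 3.87% higher of all genes. The median log2 fold change of the 92 was -1.15, beside -0.04 over all genes tested, and 73 of the 92 were below 0. All 3 Trim-away ZP3 libraries lay below all 4 Trim21 overexpression libraries for 54 of the 92 (58.7%), against 15.5% of all genes tested. The reverse held for 3 of the 92 (Sdha, Atp5g2 and Ndufaf4), against 13.1% of all genes tested. The count of 15 depended on the libraries used: it was 12 without Trim-away ZP3 replicate 1, 7 without replicate 2 and 8 without replicate 3, and it was 7, 7, 8 and 7 without Trim21 overexpression replicates 1, 2, 3 and 4. In these fits 7.45% to 12.6% of the genes tested of the pathway were called lower, against 1.54% to 3.06% of all genes. With Trim-away ZP3 replicate 1 as the only library of its group, 20 of 94 were called lower (21.3%) and 0 higher, against 5.12% lower and 1.60% higher of all genes, and 9 of the 20 were among the 15. The lone library was then assumed to vary like the others, and the median of all genes moved to -1.24, with that of the 94 genes tested at -1.74.

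**Figure D1:**
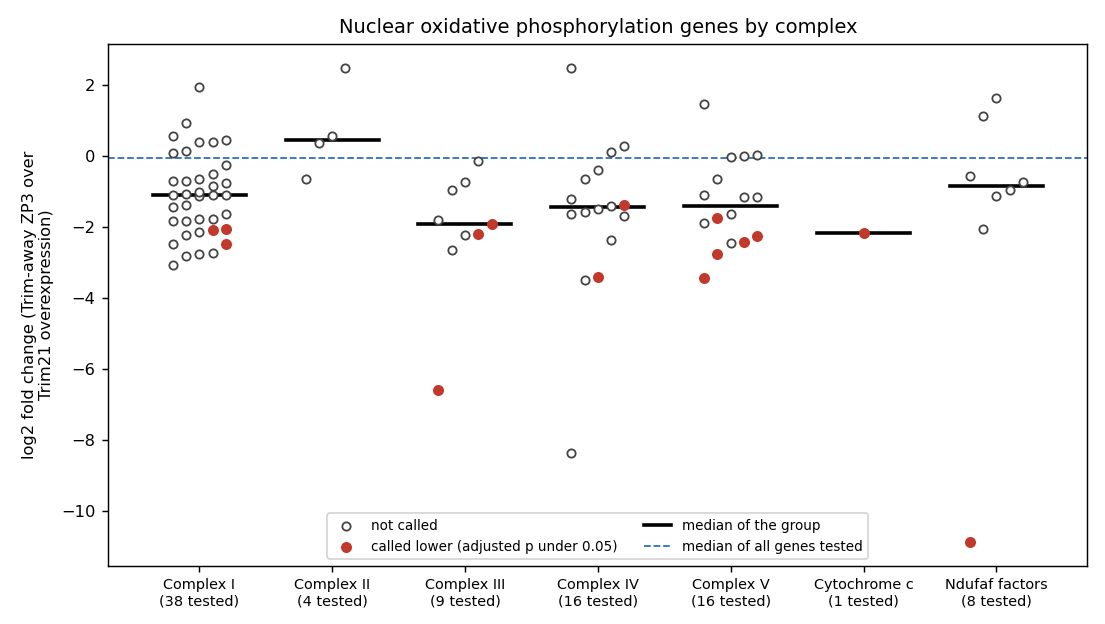
Log2 fold change of each of the 92 genes tested (vertical axis, Trim-away ZP3 over Trim21 overexpression) by complex, with filled points for the 15 called lower, bars for group medians and a dashed line for the median of all genes tested. The medians of complexes I, III, IV and V lie between -1.90 and -1.09, and that of complex II at 0.47.

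The summed level of all 96 genes was 2846, 2795 and 2912 CPM in the 3 Trim-away ZP3 libraries, against 5407, 5193, 4964 and 6464 CPM in Trim21 overexpression and 5358 CPM in non-manipulated embryos. The 3 Trim-away ZP3 libraries were within a narrow range of each other and all below the other 5. As a share of all counts, the genes took 0.249% to 0.302% of a Trim-away ZP3 library and 0.524% to 0.594% of a Trim21 overexpression library, with 0.551% in non-manipulated embryos. Relative to the mean of Trim21 overexpression on the log2(CPM + 1) scale, the median of the 92 genes was -1.44, -1.21 and -1.05 in Trim-away ZP3 replicates 1, 2 and 3, beside -0.22, -0.09 and 0.12 for all genes tested. Set against the medians of all genes, the 3 libraries were nearly level, at -1.22, -1.12 and -1.17. Replicate 1, the library with fewest counts, held the lowest level of the 8 libraries for 34 of the 92 genes (37.0%, ties left out), against 20.5% of all genes tested. The library of non-manipulated embryos lay inside the range of the 4 Trim21 overexpression libraries for 61 of the 92 genes and nearer to their mean than to that of Trim-away ZP3 for 71. Over all 13641 genes tested these numbers were 8484 and 8926. For the 15 called genes they were 12 and 15.

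**Figure D2:**
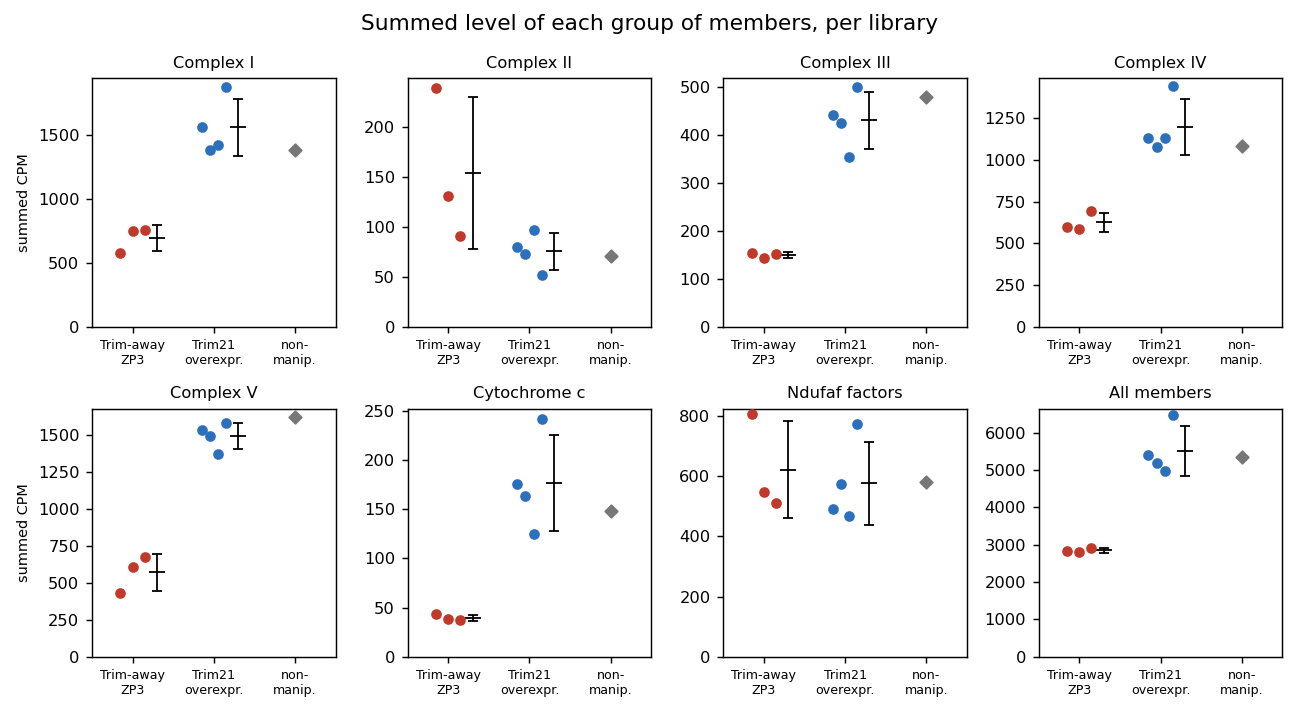
Summed CPM of each group of genes (vertical axis, from 0) in every library, with the mean and SD beside the points. Complexes I, III, IV and V and cytochrome c separate the Trim-away ZP3 libraries from both other groups, the Ndufaf factors overlap, and complex II runs the other way with an overlap.

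Complex I, the NADH dehydrogenase, had 38 genes tested, of which 3 were called lower and 22 had all Trim-away ZP3 libraries below all Trim21 overexpression libraries. These shares of 7.89% and 57.9% stood against 3.91% and 15.5% of all genes tested. The median log2 fold change of complex I was -1.09, and its summed level was 574 to 753 CPM in Trim-away ZP3 and 1381 to 1875 CPM in Trim21 overexpression. Ndufs8, a core subunit that holds iron-sulfur clusters (chr19:3908863-3912774, minus strand), stood at 7.86, 26.2 and 34.7 CPM in Trim-away ZP3, against 139, 84.7, 153 and 136 CPM in Trim21 overexpression and 104 CPM in non-manipulated embryos (log2 fold change -2.48 ± 0.54 SE, edgeR adjusted p = 0.030). Ndufb10, an accessory subunit of the membrane arm, stood at 11.7, 17.7 and 19.6 CPM in Trim-away ZP3, against 84.2, 71.5, 45.0 and 70.7 CPM in Trim21 overexpression (log2 fold change -2.05 ± 0.46 SE, edgeR adjusted p = 0.033). Neither gene's groups overlapped. Ndufa11, another membrane-arm subunit, stood at 8.29, 31.3 and 18.5 CPM in Trim-away ZP3, against 98.1, 67.3, 73.8 and 85.4 CPM in Trim21 overexpression (log2 fold change -2.07 ± 0.52 SE, edgeR adjusted p = 0.049).

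In complex I, the genes with most reads were Ndufa4 and Ndufv2. Ndufa4 stood at 126, 77.8 and 126 CPM in Trim-away ZP3, against 167, 194, 198 and 399 CPM in Trim21 overexpression (log2 fold change -1.12 ± 0.37 SE, edgeR adjusted p = 0.12). Ndufv2, a core subunit, stood at 15.2, 92.1 and 95.2 CPM in Trim-away ZP3, against 79.4, 130, 79.1 and 152 CPM in Trim21 overexpression, so that only replicate 1 was clear of the other group. Its log2 fold change was -0.71 ± 0.59 SE (edgeR adjusted p = 0.58). The 8 complex I genes with a log2 fold change above 0 reached 1.95, none was called, and their groups overlapped.

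Complex II, succinate dehydrogenase, is also an enzyme of the tricarboxylic acid cycle and has no subunit in mitochondrial DNA. None of its 4 genes was called and its median log2 fold change was 0.47. Sdha, the catalytic flavoprotein (chr13:74322254-74350280, minus strand), stood at 147, 66.7 and 58.0 CPM in Trim-away ZP3, against 18.5, 21.2, 24.7 and 0.185 CPM in Trim21 overexpression and 36.3 CPM in non-manipulated embryos. Every Trim-away ZP3 library was above every other library, but the fit gave a log2 fold change of 2.49 ± 1.07 SE (edgeR adjusted p = 0.22), with Trim21 overexpression replicate 4 nearly without reads. Limma on log2(RPKM + 1) called it higher (adjusted p = 0.043), while its adjusted p was 0.070 to 0.46 when 1 library at a time was left out. Sdhb, the iron-sulfur subunit, stood at 15.9, 26.3 and 6.91 CPM in Trim-away ZP3, against 23.8, 22.3, 31.0 and 25.7 CPM in Trim21 overexpression. Sdhc, a membrane anchor, stood at 50.0, 14.3 and 20.2 CPM in Trim-away ZP3, against 28.9, 16.3, 30.3 and 0.494 CPM in Trim21 overexpression. Sdhd, the other anchor, stood at 26.1, 23.9 and 6.07 CPM in Trim-away ZP3, against 8.37, 12.9, 11.2 and 25.4 CPM in Trim21 overexpression. The groups overlapped for Sdhb, Sdhc and Sdhd, with log2 fold changes of -0.65 ± 0.68, 0.57 ± 1.08 and 0.37 ± 0.82 (SE). Whether complex II differed from the other complexes was not tested.

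Complex III, the cytochrome bc1 complex, had 9 genes tested, all with a log2 fold change below 0, and a median of -1.90. Of these, 3 were called lower (33.3%, against 3.91% of all genes tested). All Trim-away ZP3 libraries lay below all Trim21 overexpression libraries for 7 (77.8%, against 15.5%). The summed level was 142 to 154 CPM in Trim-away ZP3 and 354 to 500 CPM in Trim21 overexpression. Uqcrfs1, the Rieske iron-sulfur protein that hands electrons to cytochrome c1 (chr13:30540308-30545362, minus strand), had 0, 3 and 2 reads in Trim-away ZP3 (0, 0.196 and 0.129 CPM), against 11.4, 13.7, 6.72 and 13.4 CPM in Trim21 overexpression and 11.9 CPM in non-manipulated embryos. Its log2 fold change was -6.59 ± 1.65 SE (edgeR adjusted p = 0.047). Uqcr10, a small accessory subunit, stood at 30.8, 32.2 and 19.8 CPM in Trim-away ZP3, against 107, 111, 93.2 and 195 CPM in Trim21 overexpression (log2 fold change -2.20 ± 0.41 SE, edgeR adjusted p = 0.017). Uqcrq, a small subunit named for ubiquinone binding, stood at 19.3, 35.1 and 46.1 CPM in Trim-away ZP3, against 123, 139, 115 and 123 CPM in Trim21 overexpression (log2 fold change -1.90 ± 0.38 SE, edgeR adjusted p = 0.023). For these 3 genes every Trim-away ZP3 library was the lower one. Cyc1, cytochrome c1, had few reads throughout, at 0, 0 and 2.46 CPM in Trim-away ZP3, against 7.67, 0.0935, 4.27 and 3.21 CPM in Trim21 overexpression and 20.9 CPM in non-manipulated embryos, and the groups overlapped.

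Cytochrome c, the small carrier between complexes III and IV that also acts in apoptosis, was lower in Trim-away ZP3. Cycs (chr6:50562563-50566538, minus strand) stood at 43.4, 38.0 and 37.3 CPM in Trim-away ZP3, against 175, 164, 125 and 242 CPM in Trim21 overexpression and 149 CPM in non-manipulated embryos. The groups were far apart, with means of 39.5 ± 3.32 CPM in Trim-away ZP3 (SD, n = 3) and 177 ± 48.7 CPM in Trim21 overexpression (SD, n = 4), a 4.47-fold difference. The fit gave a log2 fold change of -2.16 ± 0.33 SE (edgeR adjusted p = 0.0090).

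Complex IV, cytochrome c oxidase, had 16 genes tested, 2 called lower, 11 with all Trim-away ZP3 libraries below, and a median log2 fold change of -1.44. The shares called lower and lying wholly below were 12.5% and 68.8%, against 3.91% and 15.5% of all genes tested. Cox7c, a small subunit of the membrane domain (chr13:86044816-86046904, minus strand), stood at 2.07, 6.00 and 13.6 CPM in Trim-away ZP3, against 75.1, 53.3, 68.7 and 105 CPM in Trim21 overexpression (log2 fold change -3.39 ± 0.70 SE, edgeR adjusted p = 0.026). Cox7a2, the common form of subunit 7a, stood at 53.5, 74.3 and 60.4 CPM in Trim-away ZP3, against 130, 162, 137 and 224 CPM in Trim21 overexpression (log2 fold change -1.38 ± 0.32 SE, edgeR adjusted p = 0.035). In complex IV, the genes with most reads were Cox8a and Cox6b2. Cox8a stood at 136, 161 and 145 CPM in Trim-away ZP3, against 202, 176, 203 and 184 CPM in Trim21 overexpression, a small gap with a log2 fold change of -0.38 ± 0.23 SE (edgeR adjusted p = 0.41). Cox4i1, the common form of subunit 4, stood at 3.80, 14.6 and 25.8 CPM in Trim-away ZP3, against 70.1, 75.9, 64.4 and 89.8 CPM in Trim21 overexpression, without overlap (log2 fold change -2.35 ± 0.64 SE, edgeR adjusted p = 0.062). DESeq2 and limma called it lower, as they did Cox6a1 and Cox6b1, whose log2 fold changes were -1.67 ± 0.51 and -1.48 ± 0.40 (SE, edgeR adjusted p = 0.089 and 0.061).

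**Figure D3:**
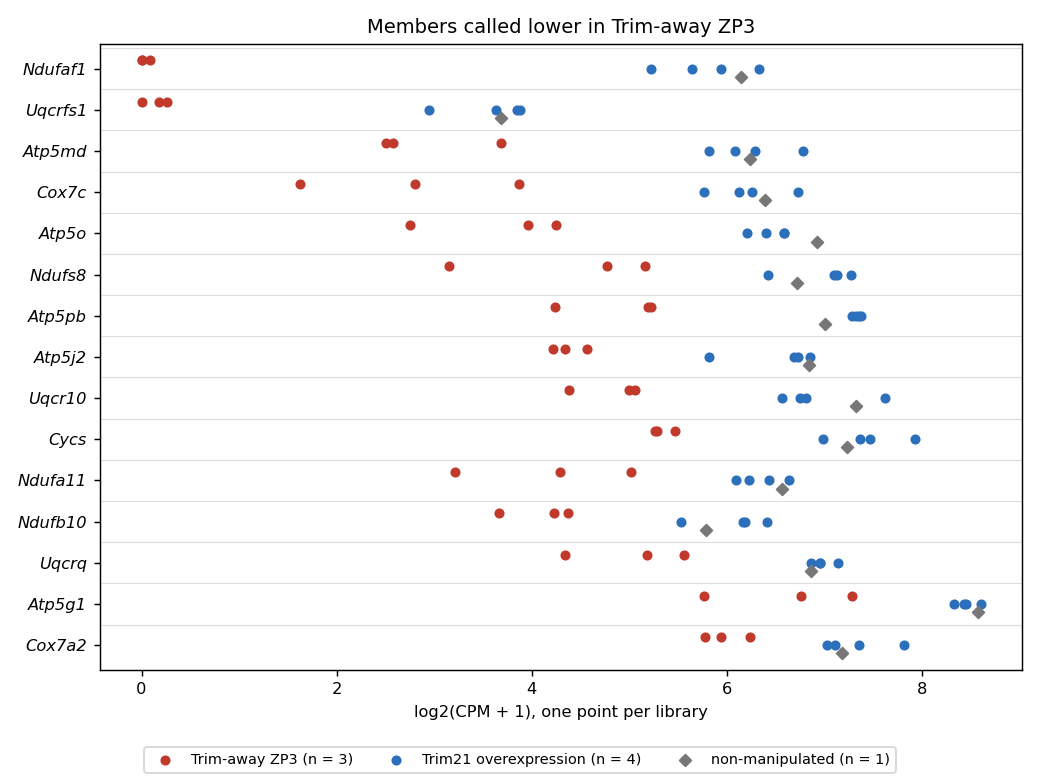
Level of the 15 genes called lower, as log2(CPM + 1) on the horizontal axis, with 1 point per library. In every gene the 3 Trim-away ZP3 libraries lie left of the 4 Trim21 overexpression libraries and of the non-manipulated library.

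Complex V, ATP synthase, had 16 genes tested, of which 5 were called lower (31.25%, against 3.91% of all genes tested). All Trim-away ZP3 libraries lay below all Trim21 overexpression libraries for 10 (62.5%, against 15.5%) and above for 1, Atp5g2. The summed level of the complex was 430 to 675 CPM in Trim-away ZP3 and 1368 to 1576 CPM in Trim21 overexpression, with 1616 CPM in non-manipulated embryos. Atp5pb, subunit b of the stalk that holds the catalytic head in place (chr3:105942698-105960099, minus strand), stood at 17.8, 36.2 and 35.6 CPM in Trim-away ZP3, against 162, 154, 159 and 165 CPM in Trim21 overexpression (log2 fold change -2.42 ± 0.35 SE, edgeR adjusted p = 0.0083). Atp5o, which joins the stalk to the head (chr16:91925214-91931687, minus strand), stood at 14.5, 5.74 and 18.0 CPM in Trim-away ZP3, against 83.1, 72.6, 94.9 and 94.8 CPM in Trim21 overexpression (log2 fold change -2.76 ± 0.51 SE, edgeR adjusted p = 0.016). Both stalk genes were clear of overlap. Atp5md, a small subunit involved in the dimers of the enzyme (chr19:47083464-47090647, minus strand), stood at 4.66, 4.95 and 11.9 CPM in Trim-away ZP3, against 77.0, 66.5, 55.1 and 108 CPM in Trim21 overexpression (log2 fold change -3.42 ± 0.57 SE, edgeR adjusted p = 0.012). Atp5j2, subunit f of the membrane part, stood at 22.6, 17.6 and 19.3 CPM in Trim-away ZP3, against 102, 115, 55.1 and 105 CPM in Trim21 overexpression (log2 fold change -2.25 ± 0.42 SE, edgeR adjusted p = 0.017). Atp5g1, 1 of the 3 genes for the rotating subunit c, stood at 53.5, 155 and 107 CPM in Trim-away ZP3, against 347, 343, 320 and 386 CPM in Trim21 overexpression (log2 fold change -1.73 ± 0.36 SE, edgeR adjusted p = 0.025).

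The 5 called genes belong to the stalk that holds the catalytic head in place and to the membrane part of ATP synthase. The F1 part is the catalytic head with the central stalk (Atp5a1, Atp5b, Atp5c1, Atp5d and Atp5e). It had 4 genes tested, 0 called, 0 with groups that did not overlap and a median log2 fold change of -0.33. The other 12 genes had 5 called, 10 with all Trim-away ZP3 libraries below, 1 (Atp5g2) above and a median of -1.81. At an unadjusted p under 0.05 there were 2 of the 4 and 9 of the 12, and DESeq2 called 1 of the 4 lower (Atp5c1). Over all genes tested, 3.91% were called lower and 15.5% had all Trim-away ZP3 libraries below, with 13.1% above. At an unadjusted p under 0.05, 12.3% of all genes were lower, and DESeq2 called 9.98% lower. This division of the complex was made after the values were seen, and the difference between its parts was not tested. Atp5b, the catalytic beta subunit and, with Atp5g1, the gene of the complex with most reads, stood at 128, 118 and 185 CPM in Trim-away ZP3, against 258, 197, 252 and 182 CPM in Trim21 overexpression, with an overlap between Trim-away ZP3 replicate 3 and Trim21 overexpression replicate 4 (log2 fold change -0.63 ± 0.27 SE, edgeR adjusted p = 0.22). Atp5d, the delta subunit of the F1 part, was not tested: it had 0 reads in Trim-away ZP3 and 185 in Trim21 overexpression, nearly all in 2 of the 4 libraries (3.41, 0.0467, 4.69 and 0 CPM). Against a floor of 3 counts over the Trim-away ZP3 group, its mean in Trim21 overexpression was 28.8-fold higher, or 16.3-fold without Trim21 overexpression replicate 3. These folds cover counting error only, and Trim21 overexpression replicate 4 had 0 reads too.

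The Ndufaf assembly factors of complex I held the called gene with the lowest log2 fold change, Ndufaf1, and a gene whose levels lay the other way, Ndufaf4. Ndufaf1 (chr2:119655446-119662827, minus strand), a factor of the complex that assembles the membrane arm, had 0, 0 and 1 reads in Trim-away ZP3 (0, 0 and 0.0646 CPM), against 36.4, 79.1, 48.8 and 60.2 CPM in Trim21 overexpression and 69.7 CPM in non-manipulated embryos. The 1 read stood against 4601 reads in Trim21 overexpression, a depth-scaled ratio of 2360 with a 95% exact interval of 423 to 93252 that covers counting error only. The fit gave a log2 fold change of -10.86 ± 1.09 SE (edgeR adjusted p = 0.0040). Ndufaf4 (chr4:24898083-24905001, plus strand), which acts with NDUFAF3 early in assembly, stood at 598, 336 and 350 CPM in Trim-away ZP3, against 159, 173, 152 and 292 CPM in Trim21 overexpression and 189 CPM in non-manipulated embryos. All 3 Trim-away ZP3 libraries were above the other 5, with a log2 fold change of 1.14 ± 0.32 SE (edgeR adjusted p = 0.069), and an adjusted p of 0.042 without Trim21 overexpression replicate 4. With Ndufaf4 included, the summed level of the 8 factors was 511 to 807 CPM in Trim-away ZP3 and 469 to 773 CPM in Trim21 overexpression. The other factor with most reads, Ndufaf2, which helps late assembly, stood at 105, 77.3 and 52.5 CPM in Trim-away ZP3, against 74.4, 99.2, 103 and 184 CPM in Trim21 overexpression, and overlapped (edgeR adjusted p = 0.51). Of the 8 factors, 3 had all Trim-away ZP3 libraries below (37.5%, against 15.5% of all genes tested) and 1, Ndufaf4, above. The 1 called gene was 12.5% of the 8, against 3.91% of all genes tested.

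The calls were not equally firm. Ndufaf1, Atp5pb, Cycs, Atp5md and Atp5o stayed under an adjusted p of 0.05 in edgeR whichever of the 7 injected libraries was left out, with a highest value of 0.0496 (Atp5md). Cox7a2, Ndufa11 and Uqcrfs1 stayed under it in none of the 7 fits, with adjusted p of 0.056 to 0.10, 0.056 to 0.13 and 0.067 to 0.11. Uqcr10 lost its call without Trim-away ZP3 replicate 3 (adjusted p = 0.054). Atp5j2 kept its call without Trim-away ZP3 replicate 1 or Trim21 overexpression replicate 1, 3 or 4, and Cox7c kept it without Trim-away ZP3 replicate 1 or 3 or Trim21 overexpression replicate 2. Ndufs8 and Uqcrq kept theirs without Trim-away ZP3 replicate 1 or 3, Atp5g1 without Trim-away ZP3 replicate 1 or 2, and Ndufb10 without Trim21 overexpression replicate 3. The adjusted p of these 6 ran up to 0.062 (Atp5j2), 0.095 (Cox7c), 0.091 (Ndufs8), 0.079 (Uqcrq), 0.078 (Atp5g1) and 0.095 (Ndufb10), and no log2 fold change turned its sign.

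Several subunits have a second gene whose product is typical of muscle, testis, lung or hypoxic cells, and the share of reads of the second gene was compared for 10 pairs. Cox7a2l and the subunit c genes Atp5g2 and Atp5g3 were also paired, although they are not such forms. Cox6b2, in adults the testis form of subunit 6b, overlapped between the groups, whereas its common partner Cox6b1 did not. Cox6b2 (chr7:4751792-4753094, minus strand) stood at 159, 127 and 150 CPM in Trim-away ZP3, against 104, 125, 141 and 163 CPM in Trim21 overexpression, a full overlap (log2 fold change 0.12 ± 0.27 SE, edgeR adjusted p = 0.87). Cox6b1 (chr7:30616861-30626151, minus strand) stood at 22.0, 31.7 and 36.2 CPM in Trim-away ZP3, against 79.3, 68.6, 70.7 and 116 CPM in Trim21 overexpression. Cox6b2 thus took 87.9%, 80.0% and 80.6% of the reads of the pair in Trim-away ZP3, against 56.8%, 64.6%, 66.6% and 58.4% in Trim21 overexpression and 54.7% in non-manipulated embryos. Per kb of exon, the mean levels of Cox6b2 and Cox6b1 were 131 and 42.3 CPM per kb in Trim-away ZP3, against 121 and 118 CPM per kb in Trim21 overexpression. The difference in share was 21.2 percentage points, with no overlap (two-sided exact permutation test, p = 0.0286, the smallest that 35 splits of 3 against 4 libraries allow, and 0.0571 after Benjamini-Hochberg adjustment over the 10 pairs).

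The same p applied to another 4 pairs, which likewise miss 0.05 after adjustment. Cox6a2, the form of heart and skeletal muscle, took 51.5%, 8.70% and 6.38% of the reads of Cox6a2 and Cox6a1 in Trim-away ZP3, against 0%, 0.431%, 4.09% and 0% in Trim21 overexpression. Replicate 1 stood apart, and with at most 10.7 CPM Cox6a2 itself had few reads. Cox7a1, the other muscle form, took 0%, 3.39% and 0.848% of its pair with Cox7a2 in Trim-away ZP3, against 11.5%, 5.03%, 5.40% and 5.63% in Trim21 overexpression. Cox7a2l, known for joining complexes III and IV in supercomplexes, took 34.1%, 22.4% and 26.7% of its pair with Cox7a2 in Trim-away ZP3, against 7.91%, 15.6%, 13.7% and 6.44% in Trim21 overexpression. The level of Cox7a2l overlapped between the groups (27.7, 21.4 and 22.0 CPM in Trim-away ZP3, against 11.1, 30.0, 21.7 and 15.4 CPM in Trim21 overexpression), so its share moved with the lower level of Cox7a2. Atp5g2, the second gene for subunit c, took 9.77%, 5.57% and 5.13% of its pair with Atp5g1 in Trim-away ZP3, against 0.443%, 1.09%, 1.42% and 0.0160% in Trim21 overexpression, at 5.79, 9.13 and 5.81 CPM in Trim-away ZP3 and at most 4.61 CPM in Trim21 overexpression.

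**Figure D4:**
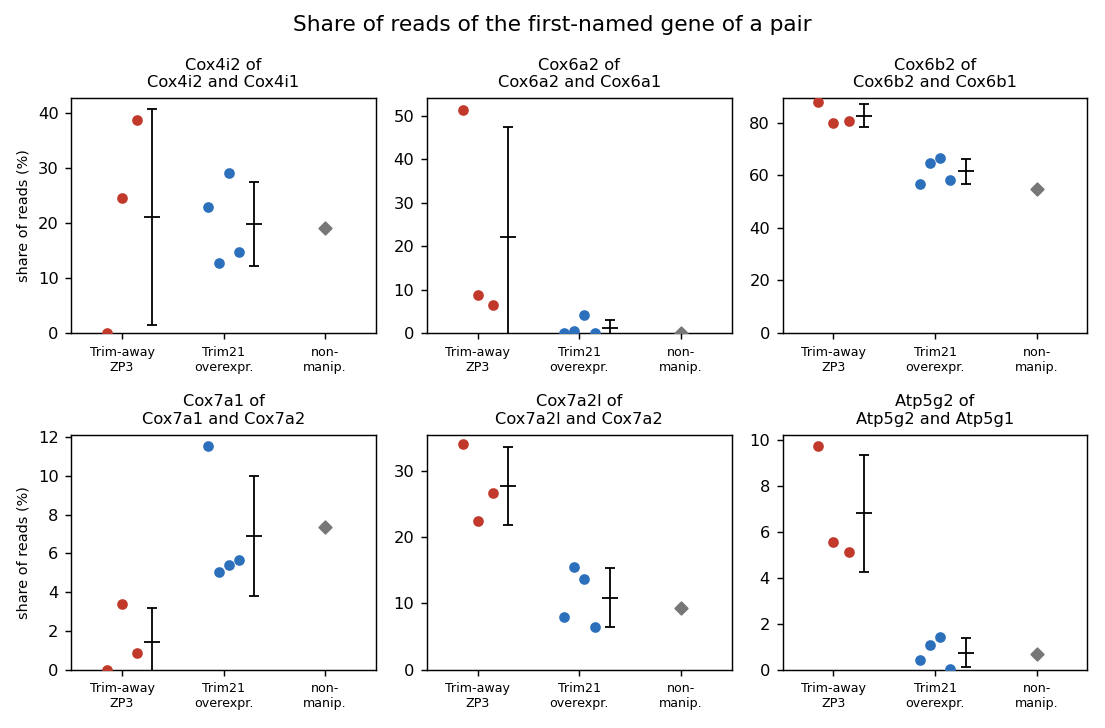
Share of the reads of a pair taken by the first-named gene (vertical axis, percent) in every library, with the mean and SD beside the points. Of the 6 pairs drawn, Cox4i2 overlaps between the groups, and the other 5 do not.

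The other 5 pairs gave exact permutation p between 0.143 and 0.914 and adjusted p of 0.238 or more. Cox4i2, the lung form of subunit 4 that responds to oxygen, took 0%, 24.6% and 38.8% of its pair with Cox4i1 in Trim-away ZP3, against 23.0%, 12.7%, 29.2% and 14.7% in Trim21 overexpression, with replicate 1 apart from the other Trim-away ZP3 libraries. Atp5g3, the last of the 3 genes for subunit c, took 5.93%, 11.2% and 15.2% of its pair with Atp5g1 in Trim-away ZP3, against 8.48%, 17.4%, 14.0% and 11.8% in Trim21 overexpression. Cox7b2, a testis form, had 0 reads in Trim-away ZP3 and 171 reads in Trim21 overexpression (3.41, 0, 0.761 and 4.94 CPM). Against a floor of 3 counts over the Trim-away ZP3 group, its mean in Trim21 overexpression was 32.2-fold higher, or 19.7-fold without Trim21 overexpression replicate 4. These folds cover counting error only, and 1 Trim21 overexpression library also had 0 reads. Cox7b, the common partner of Cox7b2, stood at 29.9, 40.2 and 68.5 CPM in Trim-away ZP3, against 96.4, 83.2, 91.1 and 152 CPM in Trim21 overexpression. Ndufa4l2, a hypoxia-inducible relative of Ndufa4, went the other way with 0, 6.58 and 6.53 CPM in Trim-away ZP3 and no read in any other library. It had 0 reads in Trim-away ZP3 replicate 1, the library with Trim21 RNA, and shares exon bases with Shmt2 on the opposite strand. Cox8c, a testis form, had 2.07 CPM in Trim-away ZP3 replicate 3, 1.54 CPM in Trim21 overexpression replicate 2 and no read elsewhere, and Cox8b had no read at all.

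The mitochondrially encoded subunits, which join the nuclear ones in the same complexes, did not share the lower levels. Of 13 genes 11 were tested and 0 were called by edgeR or DESeq2, with 0 under an unadjusted p of 0.05 in edgeR. In edgeR, 3.91% of all genes tested were called lower and 2.98% higher. All Trim-away ZP3 libraries lay above all Trim21 overexpression libraries for 4 of the 11, against 13.1% of all genes tested. Their summed level was 36375, 34744 and 37587 CPM in Trim-away ZP3, against 30563, 28817, 28146 and 30471 CPM in Trim21 overexpression and 28762 CPM in non-manipulated embryos. The CYTB gene, for cytochrome b of complex III, carried most of it. The median log2 fold change of the 11 was 0.18, beside -1.15 for the nuclear genes. Of the 13, 7 were above 100 CPM in every library and 6 (COX2, COX3, ATP6, ATP8, ND3 and ND4L) never exceeded 2.43 CPM, so the table covers these transcripts unevenly.

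Among assembly factors named outside the Ndufaf series, Hccs included, 2 of 40 genes tested were called, both lower in Trim-away ZP3, a share of 5% that is near the 3.91% of all genes tested. All Trim-away ZP3 libraries lay below all Trim21 overexpression libraries for 3 of 8 complex I factors and 2 of 6 complex III factors. The same held for 7 of 17 complex IV factors, 0 of 3 complex II factors, 2 of 5 complex V genes and Hccs. Over all genes tested, this share was 15.5%. Uqcc3, a factor for complex III, stood at 7.69, 6.98 and 11.0 CPM in Trim-away ZP3, against 105, 81.8, 86.2 and 125 CPM in Trim21 overexpression (log2 fold change -3.54 ± 0.43 SE, edgeR adjusted p = 0.0055). It was 1 of 6 complex III factors tested, with a median of -1.51. Cox14, a factor for complex IV, stood at 28.1, 24.8 and 27.7 CPM in Trim-away ZP3, against 134, 145, 75.1 and 187 CPM in Trim21 overexpression (log2 fold change -2.33 ± 0.39 SE, edgeR adjusted p = 0.012), 1 of 17 tested with a median of -1.49. It lost its call without Trim-away ZP3 replicate 2 (adjusted p = 0.0502). No gene was called among 8 further complex I factors tested (median -2.34), 3 complex II factors (median -0.24), 5 genes for complex V assembly and inhibition (median -0.03) and Hccs, the heme lyase for cytochrome c (-3.40). At an unadjusted p under 0.05 these lists held 3, 1, 1 and 0 genes, against 12.3% lower and 8.99% higher of all genes tested. DESeq2, which called 9.98% of all genes lower and 7.34% higher, called Lyrm2 and Timmdc1 of complex I lower and Dmac2 higher. Both limma fits called Lyrm2 lower. Of the complex IV factors, DESeq2 and both limma fits also called Coa6 lower, and limma on log2(RPKM + 1) called Coa3 lower. DESeq2 and both limma fits also called Sdhaf4, a factor that helps mature SDHA join SDHB, higher. Sdhaf4, singled out after its values were seen, stood at 117, 70.3 and 46.8 CPM in Trim-away ZP3, against 16.0, 30.2, 4.69 and 12.5 CPM in Trim21 overexpression, without overlap (log2 fold change 2.30 ± 0.66 SE, edgeR adjusted p = 0.071).

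Of 16 genes for mitochondrial DNA expression and for nuclear regulators of the pathway, 14 were tested. Of these, 4 were called lower (28.6%, against 3.91% of all genes tested) and 0 higher, and the median was -1.15. DESeq2 and both limma fits called these 4 and Twnk lower and 0 higher. The same 4 of the 14 were under an unadjusted p of 0.05, against 12.3% lower and 8.99% higher of all genes tested. Gabpa, the DNA-binding subunit of GABP, stood at 261, 560 and 620 CPM in Trim-away ZP3, against 1387, 1327, 1154 and 1641 CPM in Trim21 overexpression and 1213 CPM in non-manipulated embryos (log2 fold change -1.52 ± 0.31 SE, edgeR adjusted p = 0.025). Gabpb1, its partner that activates transcription, stood at 63.3, 66.1 and 84.7 CPM in Trim-away ZP3, against 430, 344, 314 and 482 CPM in Trim21 overexpression (log2 fold change -2.46 ± 0.27 SE, edgeR adjusted p = 0.0048). Both GABP subunits were thus lower in all 3 Trim-away ZP3 libraries, and Gabpb1 kept its call whichever library was left out, while Gabpa kept it in 3 of 7 such fits (adjusted p up to 0.071 without 1 of Trim-away ZP3 replicate 2 or Trim21 overexpression replicates 1, 2 and 4). Yy1 stood at 11.0, 14.9 and 27.0 CPM in Trim-away ZP3, against 62.7, 95.3, 58.4 and 97.3 CPM in Trim21 overexpression (log2 fold change -2.15 ± 0.49 SE, edgeR adjusted p = 0.034), and kept its call only without Trim-away ZP3 replicate 3. Ssbp1, the single-stranded DNA-binding protein of mitochondria, stood at 15.2, 54.1 and 34.4 CPM in Trim-away ZP3, against 118, 144, 112 and 205 CPM in Trim21 overexpression (log2 fold change -2.06 ± 0.48 SE, edgeR adjusted p = 0.036), and kept its call only without Trim-away ZP3 replicate 2. Nrf1 overlapped through 1 library, at 29.0, 71.8 and 75.7 CPM in Trim-away ZP3, against 192, 173, 140 and 38.2 CPM in Trim21 overexpression (edgeR adjusted p = 0.27). Tfam, the packaging and transcription factor of mitochondrial DNA, overlapped fully (edgeR adjusted p = 0.75). Nrf1 and Tfam were named because the motifs and the list turn on them, after their values were seen.

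**Figure D5:**
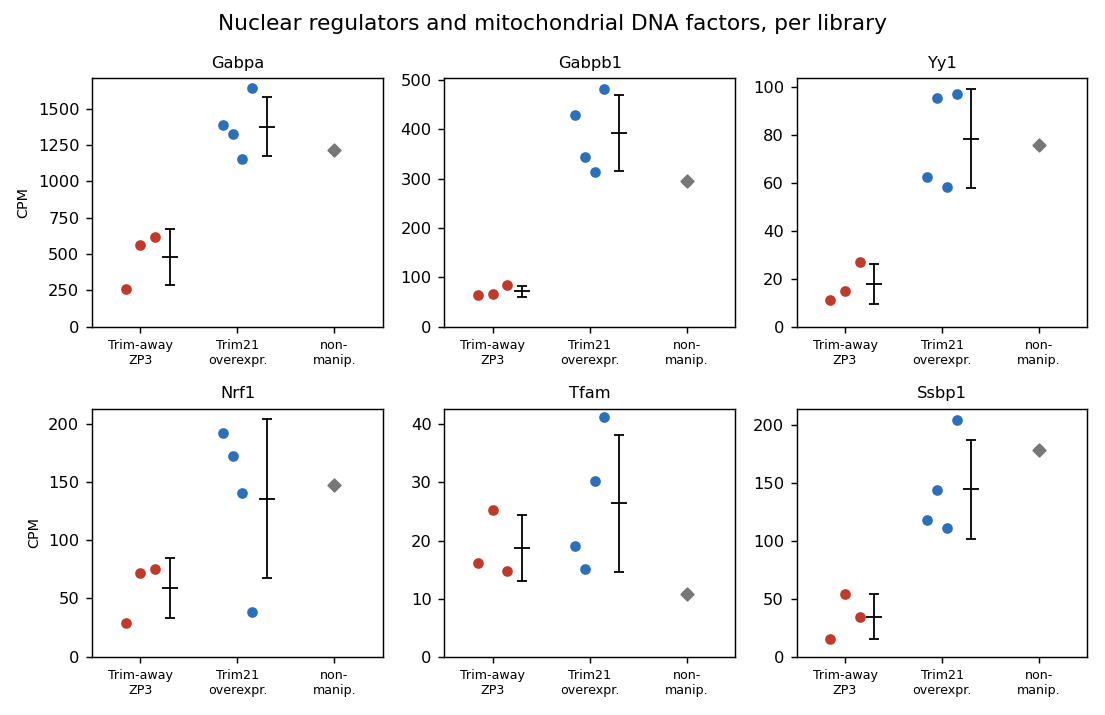
CPM (vertical axis, from 0) of 6 regulators or mitochondrial DNA factors in every library, with the mean and SD beside the points. Gabpa, Gabpb1, Yy1 and Ssbp1 separate the Trim-away ZP3 libraries from the Trim21 overexpression libraries, and Nrf1 and Tfam overlap.

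Reads cannot be assigned with certainty for all of these genes. By the annotation, 34 of the 96 share exon bases with another gene, 4 of the 15 called ones among them: Ndufa11 with Vmac, Atp5md with Taf5, Atp5pb with Wdr77 and Atp5o with Gm15976 and a second gene model of its own symbol. Many genes of the pathway also have processed pseudogenes that can take up or add reads.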

How the data were processed

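RNA of whole embryos was sequenced in 8 libraries (3 Trim-away ZP3, 4 Trim21 overexpression, 1 non-manipulated), prepared with a low-input kit from total RNA. The deposited table gave raw read counts per gene, made by the authors. Their processing notes list FastQC 0.11.9, Trimmomatic, HISAT2 and SAMtools and the build GRCm38, and the methods name htseq-count into Ensembl genes, while the strand setting and the treatment of multiply mapped reads are not given in the sources used here. In the table, the deposited RPKM columns were not used, because they are blank for many genes, and RPKM was recomputed from the counts and the table's width column.

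Counts were tested with edgeR 4.0.16 (R 4.3.3; filterByExpr, TMM scaling, quasi-likelihood test, Benjamini-Hochberg over all genes tested) between the 3 Trim-away ZP3 and 4 Trim21 overexpression libraries. The non-manipulated library entered no test. Errors of log2 fold changes are SE derived from the fit. The test was also run on simulated counts with equal spread for all genes, unlike these libraries, so that check covers the code only. Total counts of 13228428 to 22427747 per library set the precision. Alternatives were RLE scaling, no filter, DESeq2 1.42.0, limma 3.58.1 on log2(RPKM + 0.1) and log2(RPKM + 1), leaving out each library, and the replicate number as a block. A fit with Trim-away ZP3 replicate 1 alone was chosen after seeing the data. Shares of reads of gene pairs were compared by exact permutation.

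The members and lists were chosen with earlier results of these data known. Named were: every member called, the 2 genes with most reads per group, the Sdh genes, Cyc1 and Cycs, genes without reads in 1 injected group, tissue forms with partners, and called genes of the other lists. The labels call the libraries biological replicates but do not say that they came from separate cultures, so p-values measure the spread between these samples, which may be partly technical. Gene positions and exon overlaps are from GENCODE M21 and promoters from RefSeq (GRCm38.p6).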

Additional observations from a re-analysis of the deposited data

Results flagged for a closer look

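Among the named genes, 4 had a Trim21 overexpression library far from the other 3, with a gap to the nearest above Dixon's 95% critical value for 4 libraries. About 1 group in 20 does so by chance, and 40 were examined. The highest library held 399 CPM for Ndufa4 (others 167 to 198) and 292 CPM for Ndufaf4 (others 152 to 173), in both cases replicate 4. It held 3.38 CPM for Cox6a2 in replicate 3 (others 0 to 0.421) and 1.54 CPM for Cox8c in replicate 2 (others 0).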

How the results depend on the processing

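The count of 15 genes called lower was 15 with RLE scaling, 11 without the filter and 20 with Trim-away ZP3 replicate 1 only, and it was 34 with DESeq2, 31 with limma on log2(RPKM + 0.1) and 34 with limma on log2(RPKM + 1). Leaving out 1 library at a time gave 7 to 12 lower. The count of 0 called higher was 1 with DESeq2, 1 with limma at 0.1, 2 with limma at 1 (Ndufaf4 and Sdha) and 0 to 1 without 1 library. With the replicate number as a block, 0 genes were called in edgeR, among the 92 or over all 13641. For equal numbers, the correlations of deviations between the groups were -0.09, 0.004 and -0.01. These values cannot settle whether the numbers mark shared batches. The median log2 fold change of -1.15 was -1.32 with the replicate block, -0.92 with limma at 1, -1.74 with Trim-away ZP3 replicate 1 only, and -1.39 to -1.09 without 1 library. The median of all genes moved to -0.31 without the filter and to -1.24 with replicate 1 only, so that the medians of these genes lay 0.83 and 0.51 below it. Sdhc turned to -0.14 without Trim-away ZP3 replicate 1, within -0.14 to 0.89 over the fits without 1 library. The cause of these changes was not tested. With 3 and 4 libraries of unequal depth, genes at a few CPM, such as Cyc1, Cox8c and Atp5d, could not be resolved.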
